A study of Mus musculus with 7 samples.

Results

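The genes described here are the D-type cyclins, the kinases they activate and the inhibitors of those kinases: Ccnd1, Ccnd2, Ccnd3, Cdk4, Cdk6, Cdkn1a, Cdkn1b, Cdkn2a, Cdkn2c and Cdkn2d. They were taken by gene symbol, and all 10 were found among the 39179 genes of the authors' deposited table. Messenger RNA was sequenced from regulatory T cells, a suppressive class of CD4 T cell, which had been sorted from lymph nodes of C57BL/6 mice aged 3 weeks as CD4+TCRb+CD25hi Foxp3+ cells. The double-knockout (dKO) group had 3 numbered libraries of genotype Id2fl/flId3fl/flFoxp3cre, and the control group had 2 numbered libraries of genotype Id2fl/+Id3fl/+Foxp3cre. Both groups carried the Cre recombinase driven from Foxp3, so the floxed alleles are removed in cells that express Foxp3, and the control cells can lose 1 allele of each gene. A single pair, 1 library labelled dKO and 1 labelled control, was processed apart. In that pair the genotype tags stand against the titles and source names, each the other way round, and the libraries are named here by title. The labels do not say whether libraries of a group came from separate animals. The p-values therefore measure the spread among these libraries only, and that spread may be technical.

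D-type cyclins bind CDK4 and CDK6 in response to growth signals, and the active kinases phosphorylate the retinoblastoma protein family. That step releases E2F transcription factors, which turn on cyclin E and the genes of DNA replication. Inhibitors of the INK4 family, among them those made from Cdkn2a, Cdkn2c and Cdkn2d, bind CDK4 and CDK6 directly. The CIP/KIP inhibitors, made from Cdkn1a (p21) and Cdkn1b (p27), bind cyclin-kinase complexes more widely and are best known for blocking CDK2. In T cells, Ccnd2 and Ccnd3 are the main D-type cyclins and p27 is high in resting cells. Id2 and Id3 hold E protein transcription factors off DNA, and E proteins recognise the E-box, a motif of the letters CANNTG.

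Values of the replicated comparison are group means without an SD, in read counts after division by each library's size factor, called scaled counts here. Adjusted p-values are those of the authors' deposited table, with Benjamini-Hochberg adjustment over all genes, and genes under 0.05 are said to have risen or fallen. Size factors, recovered from the steps between low values, were 0.929, 0.910 and 0.860 in dKO and 1.29 and 1.09 in control, which puts the mean control depth at 1.32 times that of dKO. The column sums of the authors' deposited table were 39948600 scaled counts in dKO and 38950900 in control. Of the targeted genes, Id2 had 61.1 scaled counts in dKO and 783 in control (log2 -3.68, adjusted p 1.48e-08), and Id3 had 891 in dKO and 1376 in control (log2 -0.63, adjusted p 0.209), by the authors' deposited table. Defining genes of the sorted cells were abundant in the authors' deposited table, with Foxp3 at 10942 scaled counts in dKO and 13481 in control and Il2ra at 32127 in dKO and 32376 in control. The Y-linked genes Kdm5d and Uty had 616 reads in control, of which 601 lay in the deeper library and 15 in the shallower one. Uty alone had 316 in the deeper control library and 12 in the shallower one. In dKO, Kdm5d had 3, 3 and 1 reads, and Uty had 46 to 49 reads summed over the 3 libraries. The deeper control library thus stands apart from the other libraries in these genes, and values without it are given where its reads could be recovered.

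According to the authors' deposited table, 4 of the 10 genes rose in dKO, 1 fell and 5 did not pass. All 4 that rose were inhibitors (Cdkn1a, Cdkn2a, Cdkn2c and Cdkn2d), and the gene that fell was a D-type cyclin, Ccnd3. Across all 31641 genes with a p in the authors' deposited table, 6.56% passed, 3.38% higher and 3.18% lower in dKO. Among its 15436 genes with a mean of 10 or more, 13.3% passed, 6.85% higher and 6.43% lower in dKO. The median log2 fold change of the 10 genes was -0.12, beside -0.01 for genes with a mean of 10 or more in the authors' deposited table. In a bulk sample, a change in the share of cells that express a gene and a change in RNA per cell cannot be told apart.

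**Figure D1:**
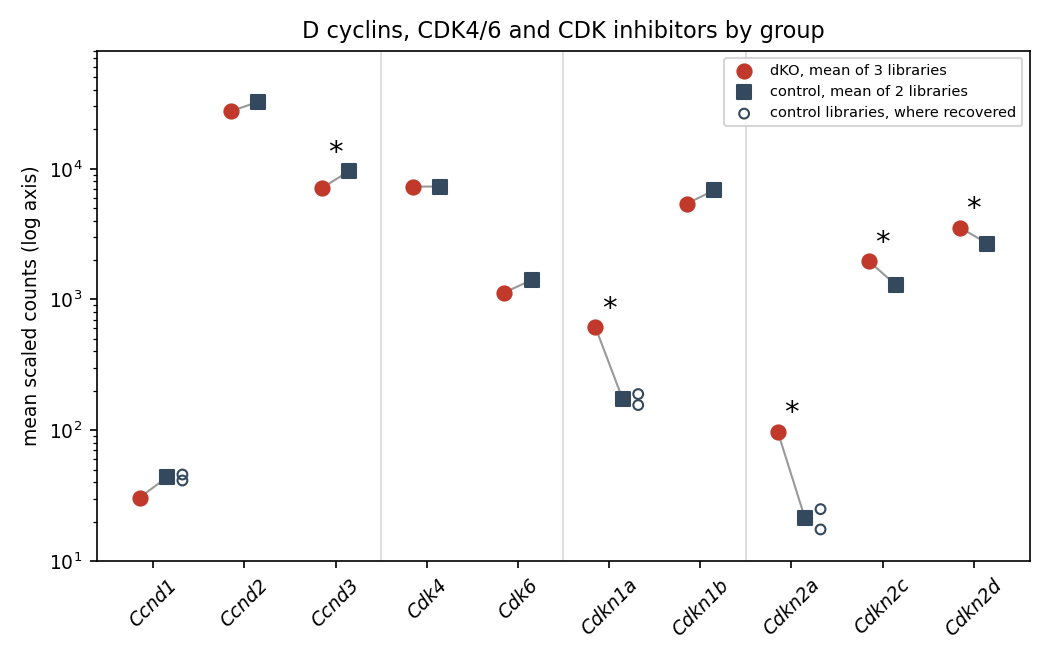
Mean scaled counts of each gene (log axis) in dKO (circles, 3 libraries) and control (squares, 2 libraries), ordered by role, with an asterisk where the authors' deposited table has an adjusted p under 0.05. Open circles are the control libraries where whole reads could be recovered. The widest gaps as drawn are those of Cdkn1a (615 in dKO, 172 in control) and Cdkn2a (97.6 in dKO, 21.1 in control), while Cdk4 had 7308 in dKO and 7310 in control.

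Among the D-type cyclins, Ccnd3 fell and the others did not pass. Ccnd3 (ENSMUSG00000034165, chromosome 17, 47505051 to 47599691, plus strand, GRCm38) had 7140 scaled counts in dKO and 9600 in control (log2 -0.43, adjusted p 0.0183) by the authors' deposited table. This call did not hold at an adjusted p under 0.01. Ccnd2, the most abundant of the 3 (ENSMUSG00000000184, chromosome 6, 127125779 to 127151048, minus strand), had 27574 scaled counts in dKO and 32468 in control by the authors' deposited table (log2 -0.24, adjusted p 0.442). Ccnd1, the D-type cyclin of many non-lymphoid cells (ENSMUSG00000070348, chromosome 7, 144929931 to 144939869, minus strand), was low, at 30.5 scaled counts in dKO and 43.5 in control (log2 -0.51, adjusted p 0.975) in the authors' deposited table. The control mean of Ccnd1 came from 53 reads in the deeper library and 50 in the shallower one, or 41.2 and 45.8 scaled counts. The dKO mean of Ccnd1 could be made from 4 sets of whole reads, each with at least 1 dKO library at 39.8 scaled counts or more and at least 1 at 22.1 or less. All 3 values lay below 0 on the log2 scale, between -0.51 and -0.24, and 1 of the 3 cyclins passed.

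Levels of different genes were compared per length. In the single pair, where FPKM is set per transcript length, Ccnd2 had 65.8% of the D-type cyclin FPKM in the library labelled dKO and 55.7% in the library labelled control. Ccnd3 had 33.9% in the library labelled dKO and 44.2% in the library labelled control, and Ccnd1 0.292% and 0.18% in the same order of libraries. In the replicated comparison, scaled counts were divided by the exon length given in the authors' deposited table, 8775 bases for Ccnd3. On that scale Ccnd2 made up 85.5% of the D-type cyclin level in dKO and 83.7% in control, Ccnd3 14.4% in dKO and 16.1% in control, and Ccnd1 0.141% in dKO and 0.167% in control. Both scales put Ccnd2 first, Ccnd3 after it and Ccnd1 last, in each group.

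Each D-type cyclin gene overlaps a gene on the opposite strand, and the libraries marked the strand with dUTP, per the labels' protocols. The sources used here do not give whether the authors counted by strand. For Ccnd3 the neighbour is Bysl, a ribosome assembly gene, which shares 361 bases with it and had 1740 scaled counts in dKO and 1687 in control (adjusted p 1) in the authors' deposited table. A pseudogene of Ccnd3, Ccnd3-ps, is 96.3% identical over 881 bases. It held 4.93 scaled counts in dKO and 5.33 in control by the authors' deposited table, and the log2 ratio of the sum of both genes was -0.43.

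Neither kinase passed. Cdk4 (ENSMUSG00000006728, chromosome 10, 127063534 to 127067920, plus strand) had 7308 scaled counts in dKO and 7310 in control, with a log2 fold change of -0.0004 and an adjusted p of 1 by the authors' deposited table. Cdk6 (ENSMUSG00000040274, chromosome 5, 3343893 to 3523218, plus strand) had 1128 scaled counts in dKO and 1409 in control (log2 -0.32, adjusted p 0.781) in the authors' deposited table. Cdk4 had 88.2% of the summed level of both kinases per kilobase of exon in dKO and 85.6% in control. A p that misses the threshold does not show that a level was the same, and these group means carry no interval. Tspan31, a tetraspanin gene on the opposite strand that shares 604 bases with the end of Cdk4, fell, with 679 scaled counts in dKO and 1316 in control (log2 -0.96, adjusted p 3.44e-07) in the authors' deposited table. Its part in the Cdk4 value was not tested.

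The window upstream of Cdk4 is shown because it holds more E-boxes than any other window of these genes. It is the 250 bases before the start annotated by RefSeq on GRCm38.p6, chr10:127063285-127063534, plus strand, 5′ to 3′, with each CANNTG in capitals.
Cdk4: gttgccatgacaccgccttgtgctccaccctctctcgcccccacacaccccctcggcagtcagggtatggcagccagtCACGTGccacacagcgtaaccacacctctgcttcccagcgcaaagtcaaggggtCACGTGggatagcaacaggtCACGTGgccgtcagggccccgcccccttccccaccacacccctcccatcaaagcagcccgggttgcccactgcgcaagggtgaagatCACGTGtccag
All 4 of its E-boxes read CACGTG, a form bound by Myc and related factors, and they begin at -172, -118, -98 and -11 bases from the start. E-boxes of any form were present in 66.2% of the 32851 upstream windows of RefSeq genes, and 3.84% held 4 or more. The form CACGTG, counted on its own after the sequence had been seen, was present in 6.02% of windows, and 0.0213% held 4 or more. RefSeq windows were found for 8 of the 10 genes, 12 windows in all (Ccnd1 and Ccnd2 had none), and 3 of the 12 held an E-box. The others with an E-box were Cdk6, with 1 CACGTG at -220 bases from its start, and the downstream start site of Cdkn1a. CAGCTG was in 0 of the 12 windows and in 13.0% of all windows. The E2F letters TTCGCGC were in 0 of the 12 and in 1.28% of all windows, on either strand. The FoxO letters TGTTTAC were in 1 of the 12 windows, that of the upstream start of Ccnd3, and in 3.17% of all windows. A match is a run of letters and not evidence of binding.

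Cdkn1a rose and Cdkn1b did not pass. Cdkn1a (ENSMUSG00000023067, chromosome 17, 29090979 to 29100722, plus strand) had 615 scaled counts in dKO and 172 in control, 3.57-fold higher in dKO (log2 1.84, adjusted p 8.36e-09) in the authors' deposited table. The control mean corresponded to 243 reads in the deeper library and 170 in the shallower one, or 189 and 156 scaled counts. Against these libraries 1 at a time, the log2 ratio of the dKO mean was 1.70 and 1.98. Of the 15436 genes averaging 10 scaled counts or more in the authors' deposited table, 1.5% had a larger log2 fold change than Cdkn1a. Cdkn1b (ENSMUSG00000003031, chromosome 6, 134920401 to 134925513, plus strand) had 5391 scaled counts in dKO and 6844 in control (log2 -0.34, adjusted p 0.134) in the authors' deposited table. No other gene overlaps either of them in the table, and no copy of at least 200 bases at 90% identity was found among its genes.

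Cdkn1a has a pair of annotated start sites whose transcripts were listed separately in the single pair of libraries. The upstream windows of both are shown because the transcript entries differed between the libraries; each is 250 bases on the plus strand of GRCm38.p6, 5′ to 3′, with E-boxes in capitals. They lie at chr17:29090729-29090978 and chr17:29093519-29093768.
Cdkn1a upstream start: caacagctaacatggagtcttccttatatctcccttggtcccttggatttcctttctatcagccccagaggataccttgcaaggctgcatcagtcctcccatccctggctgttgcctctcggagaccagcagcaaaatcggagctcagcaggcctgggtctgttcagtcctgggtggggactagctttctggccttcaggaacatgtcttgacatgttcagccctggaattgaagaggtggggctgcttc
Cdkn1a downstream start: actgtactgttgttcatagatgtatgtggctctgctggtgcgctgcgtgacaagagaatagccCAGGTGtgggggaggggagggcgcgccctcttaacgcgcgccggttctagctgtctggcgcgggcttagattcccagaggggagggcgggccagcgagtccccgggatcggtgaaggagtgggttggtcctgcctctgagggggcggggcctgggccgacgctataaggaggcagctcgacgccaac
The upstream window holds no E-box. The downstream window holds 1, CAGGTG at -187 bases from the start, and this form or its reverse complement CACCTG was in 17.2% of all windows. The transcript from the upstream start (NM_001111099) had 3.28 FPKM in the library labelled dKO and 0.00198 in the library labelled control. The transcript from the downstream start (NM_007669) had 6.91 FPKM in the library labelled dKO and 3.10 in the library labelled control. Both were higher in the library labelled dKO, and the upstream start made up 32.2% of Cdkn1a FPKM there and 0.0636% in the library labelled control. With 1 library per group this split has no replicate check, and the depth behind an FPKM value is unknown.

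All 3 INK4 genes among the 10 rose in dKO. Cdkn2a (ENSMUSG00000044303, chromosome 4, 89274471 to 89294653, minus strand), a gene that is silent in most healthy young tissue and makes both p16 and the unrelated protein p19Arf, had 97.6 scaled counts in dKO and 21.1 in control in the authors' deposited table. That is 4.62-fold higher in dKO (log2 2.21, adjusted p 0.0027), and 1.06% of genes with a mean of 10 or more had a larger log2 fold change in the authors' deposited table. The control mean came from 32 reads in the deeper library and 19 in the shallower one, 24.9 and 17.4 scaled counts, and against each of these alone the log2 ratio was 1.97 and 2.49. The dKO mean could be made from 22 different sets of whole reads in the 3 dKO libraries, so its library values are not known. In each set at least 1 dKO library held 119 scaled counts or more, while the lowest dKO library could be as low as 5.82, below both control libraries, or as high as 79.1, above both. Whether the groups overlap is therefore not known. Cdkn2a stayed rare in dKO, at 83.3 scaled counts per kilobase of exon there, the 2nd lowest level of the 10 genes.

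Cdkn2c, which makes p18 (ENSMUSG00000028551, chromosome 4, 109660876 to 109667189, minus strand), had 1965 scaled counts in dKO and 1285 in control, log2 0.61 and adjusted p 0.0006 by the authors' deposited table. Cdkn2d, the gene of the INK4 protein p19 (ENSMUSG00000096472, chromosome 9, 21288463 to 21291209, minus strand), had 3553 scaled counts in dKO and 2679 in control (log2 0.41, adjusted p 0.0374) in the authors' deposited table. This last call did not hold at an adjusted p under 0.01. Cdkn2c and Cdkn2d had no overlapping gene and no copy found in the table.

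The inhibitors' order by level depended on the scale. In FPKM of the single pair, Cdkn1b made up 55.1% of the 5 inhibitors in the library labelled dKO and 77.6% in the library labelled control, and Cdkn2c 30.05% and 15.2% in the same order of libraries. On that scale Cdkn1a made up 8.19% in the library labelled dKO and 2.36% in the library labelled control. Per kilobase of exon in the replicated comparison, Cdkn2d came first, with 55.1% of the 5 inhibitors in dKO and 50.4% in control, and Cdkn1b had 23.4% in dKO and 35.9% in control. Cdkn1a made up 5.45% there in dKO and 1.85% in control, and Cdkn2a 1.64% in dKO and 0.431% in control. On both scales the share of Cdkn1b was lower, and that of Cdkn1a higher, in dKO or in the library labelled dKO, with no test of these shares.

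Cdkn2a is read from separate first exons that share later exons, and the authors' deposited table gives 1 value for the gene. The 250-base windows before both starts hold no E-box, and their GC content was 78.4% for the p19Arf start and 60.0% for the p16 start, beside a median of 52.4% over all windows. In the single pair, the p19Arf transcript (NM_009877) had 1.37 FPKM in the library labelled dKO and 0.991 in the library labelled control. The p16 transcript (NM_001040654) was listed at 0 in the library labelled dKO and had 0.357 FPKM in the library labelled control. Summed over both, Cdkn2a had 1.37 FPKM in the library labelled dKO and 1.35 in the library labelled control, a log2 ratio of 0.02 after 1 FPKM was added to each. The pair therefore shows no gap of the size seen for the gene in the replicated comparison, where the authors' deposited table gives 2.21 on the log2 scale.

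The other CDK inhibitor genes, among them the remaining INK4 gene, Cdkn2b, did not pass. Cdkn2b, the neighbour of Cdkn2a on chromosome 4 (89306289 to 89311032), had 12.2 scaled counts in dKO and 5.40 in control (log2 1.18, raw p 0.153, adjusted p 0.754) in the authors' deposited table. Its reads could be recovered in every library: 12, 11 and 10 in dKO and 8 and 5 in control, or 12.9, 12.1 and 11.6 scaled counts in dKO and 6.22 and 4.58 in control. The groups do not overlap, at a depth of 5 to 12 reads per library. Among 3135 genes with a mean of 5 to 20 scaled counts whose reads could be recovered in every library, all dKO libraries lay above all control libraries in 10.8% and below them in 17.4%. Cdkn1c, the remaining CIP/KIP gene, had 130 scaled counts in dKO and 139 in control (log2 -0.10, raw p 0.682, adjusted p 1) in the authors' deposited table.

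**Figure D2:**
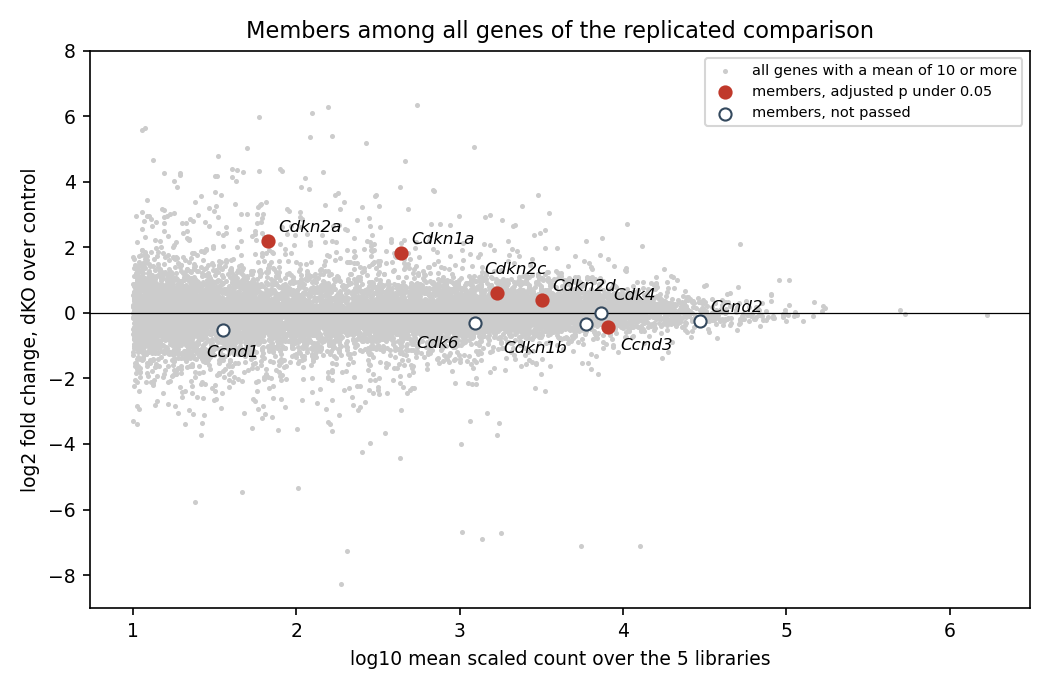
Log2 fold change (dKO over control) against the log10 mean scaled count, for genes with a mean of 10 or more (grey) and the 10 genes described here (filled where the authors' deposited table has an adjusted p under 0.05, open otherwise). Cdkn2a at 2.21 and Cdkn1a at 1.84 lie above most grey points, Cdkn2c and Cdkn2d lie lower, and the cyclins and kinases lie at or under 0.

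In the single pair, FPKM of the 10 genes was summed over a gene's transcript entries, and 1 FPKM was added to each sum before the log2 ratio was taken, so changes of low genes are understated. There is no test, since each group has 1 library. Cdkn1a had 10.2 FPKM in the library labelled dKO and 3.11 in the library labelled control, a log2 ratio of 1.45. Of the 8 genes described here that reached 5 FPKM in either library, it was the only one with a log2 ratio of 1 or more in size. That size was reached by 5.83% of the 8681 genes with such FPKM, 2.67% higher and 3.16% lower in the library labelled dKO. With the most abundant transcript alone in place of the sum, its log2 ratio was 0.95. Cdkn2c had 37.4 FPKM in the library labelled dKO and 19.99 in the library labelled control (log2 0.87), and Cdkn2d had 6.90 in the library labelled dKO and 4.97 in the library labelled control (log2 0.40). For Cdkn1a, Cdkn2c and Cdkn2d the sign was that of the replicated comparison. These signs rest on the titles and would turn if the genotype tags were right.

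Cdkn1b had 68.6 FPKM in the library labelled dKO and 102 in the library labelled control (log2 -0.57), and Ccnd3 had 89.0 in the library labelled dKO and 135 in the library labelled control (log2 -0.60). Ccnd2 was at 173 FPKM in the library labelled dKO and 170 in the library labelled control, Cdk4 at 208 and 196 and Cdk6 at 10.01 and 9.91 in the same order of libraries. These 3 had log2 ratios between 0.01 and 0.08. Ccnd1 had 0.768 FPKM in the library labelled dKO and 0.551 in the library labelled control (log2 0.19). For Ccnd1, Ccnd2, Cdk4 and Cdk6 the sign was opposite to that of the replicated comparison, in which none of these genes passed. These signs are not read as a reversal. Cdk4 was at -0.0004 in the replicated comparison, Ccnd2 and Cdk6 were near the pair's median of 0.007, and Ccnd1 was under 1 FPKM in both libraries. The targeted gene Id2 had 9.69 FPKM in the library labelled dKO and 18.6 in the library labelled control, and Id3 had 221 in the library labelled dKO and 160 in the library labelled control.

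Ccnd3 also has transcripts from separate starts. The transcript from the downstream start (NM_007632) had 63.0 FPKM in the library labelled dKO and 108 in the library labelled control. Of the transcripts from the upstream start, NM_001081635 had 26.0 FPKM in the library labelled dKO and 20.1 in the library labelled control, and NM_001081636 had 0.0106 in the library labelled dKO and 7.05 in the library labelled control. The downstream start made up 70.8% of Ccnd3 FPKM in the library labelled dKO and 79.9% in the library labelled control.

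**Figure D3:**
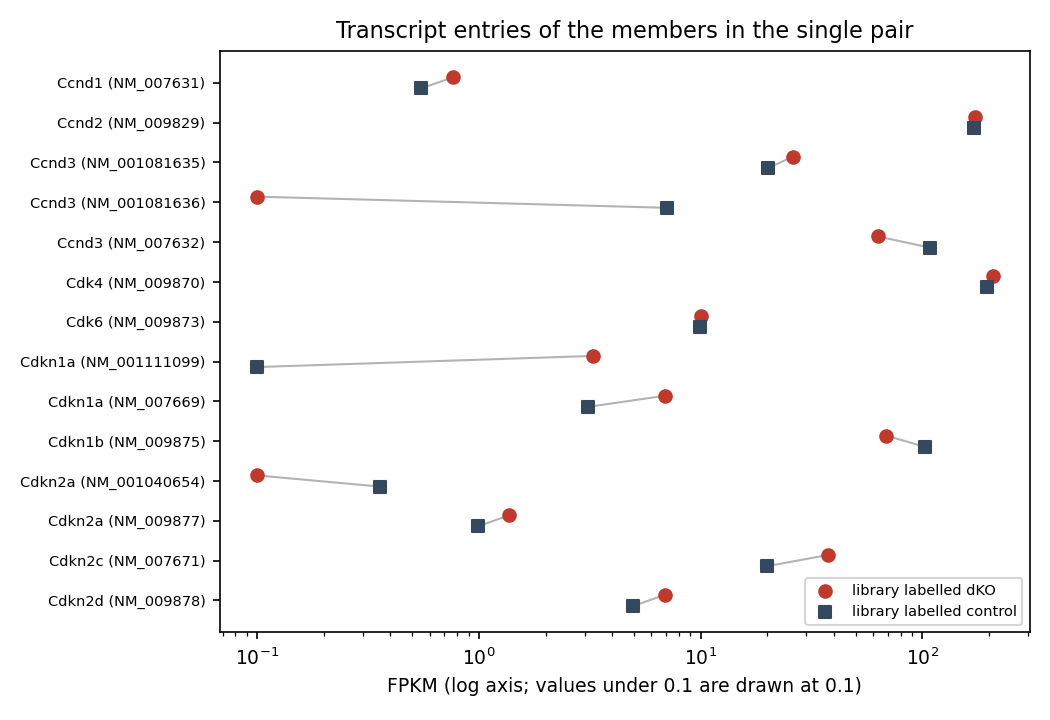
FPKM (log axis) of the transcript entries of the 10 genes (without a second Cdkn2d entry, listed at 0 in both libraries) in the library labelled dKO (circles) and the library labelled control (squares) of the single pair; values under 0.1 are drawn at 0.1. The widest gaps as drawn are those of the Cdkn1a transcript NM_001111099, the Ccnd3 transcript NM_001081636 and the p16 transcript of Cdkn2a (NM_001040654), each at or near 0 in 1 of the libraries.

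Of 9 cyclin and kinase genes that act with or after CDK4 and CDK6 at the G1/S step, 4 rose and 5 did not pass, according to the authors' deposited table. None fell, at the adjusted p of its DESeq test or at a raw p under 0.05 (0 genes), and the median log2 fold change was 0.39. Ccne1 and Ccne2, the E-type cyclins that activate CDK2, had log2 fold changes of 0.77 (adjusted p 2.43e-06) and 0.90 (adjusted p 0.0002) by the authors' deposited table. Ccna2, the cyclin of S phase, had 8015 scaled counts in dKO and 4051 in control, and Cdk1, the mitotic kinase, had 3191 in dKO and 1608 in control, both past the threshold of the authors' deposited table. Ccne2 and Ccna2 are among the genes marked there as overlapping another. The counts at the adjusted p, of this list and of those below, stand beside 13.3% passed among all genes with a mean of 10 or more. Of all those genes, 6.85% were higher and 6.43% lower in dKO. No share of all genes was taken at a raw p under 0.05, here or below.

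For 13 genes of the retinoblastoma and E2F families, the authors' deposited table has 5 that rose, 1 that fell and 7 short of the threshold (median log2 0.20). E2f2, an activating E2F, had 13788 scaled counts in dKO and 5314 in control (log2 1.38, adjusted p 3.08e-21) in the authors' deposited table. The repressive E2F genes E2f8 and E2f7 had log2 fold changes of 0.91 (adjusted p 3.58e-08) and 0.97 (adjusted p 0.0003), and Tfdp1, a partner of E2F proteins, 0.62 (adjusted p 0.0002), all by the authors' deposited table. E2f6, another repressive member, rose too (log2 0.43, adjusted p 0.0425, the authors' deposited table). Rbl2, which makes the retinoblastoma relative p130 of resting cells, was the one that fell (log2 -0.44, adjusted p 0.0222) according to the authors' deposited table. E2f8 and Rbl2 are marked as overlapping another gene.

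Of 14 genes for the chaperones and ubiquitin ligases that handle D cyclins, CDK4 and the inhibitors, the authors' deposited table has 2 that rose and 12 that did not pass (median log2 0.09). The 2 were Skp2 (log2 0.64, adjusted p 0.0026) and Cks1b (log2 0.81, adjusted p 0.0004), the subunits through which p27 is marked for destruction, by the authors' deposited table. Among 20 regulators known to act on transcription of these genes, the authors' deposited table has 2 that rose, 1 that fell and 17 that did not pass (median log2 -0.02). Beside the counts of both lists, 13.3% of all genes with a mean of 10 or more passed, in either direction. Ezh2, a Polycomb enzyme known to keep Cdkn2a silent, had 13463 scaled counts in dKO and 5447 in control (log2 1.31, adjusted p 3.38e-05) in the authors' deposited table, which marks it as overlapping another gene. Tcf3, which makes the E proteins E12 and E47, had a log2 fold change of 0.67 (adjusted p 2.9e-05), and Klf2, a factor of resting T cells, one of -0.63 (adjusted p 5.32e-05), by the authors' deposited table.

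Cdkn1a is a classic target of p53, so 18 other p53 target genes were set beside it. By the authors' deposited table, 3 of these rose, 2 fell and 13 did not pass (median log2 0.16). Plk2, a polo-like kinase gene, had 939 scaled counts in dKO and 206 in control (log2 2.19, adjusted p 1.75e-19) in the authors' deposited table, and its control reads, 275 in the deeper library and 216 in the shallower, gave 214 and 198 scaled counts. Gtse1, a gene of dividing cells, had 1480 scaled counts in dKO and 741 in control (adjusted p 2.77e-08), and Pmaip1, which makes the death-promoting protein Noxa, 1864 in dKO and 538 in control (adjusted p 0.0012), by the authors' deposited table. Sesn1, a stress response gene, fell to 1868 scaled counts in dKO, against 4221 in control (adjusted p 2.07e-16), and Tnfrsf10b, a death receptor gene, to 206 in dKO, against 343 in control (adjusted p 0.0368), by the authors' deposited table.

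Markers of cycling cells were higher in dKO beside these changes. Of 15 such genes, 12 rose and 3 did not pass, according to the authors' deposited table; none fell, also at a raw p under 0.05 of its DESeq test (0 genes). Their median log2 fold change was 0.97, and they summed to 149712 scaled counts in dKO and 85185 in control by the authors' deposited table. Plk1, a mitotic kinase gene, had 4006 scaled counts in dKO and 1911 in control (adjusted p 2e-12), and Birc5, which makes survivin, 4063 in dKO and 2027 in control (adjusted p 4.09e-11), by the authors' deposited table. Ccnb2, a mitotic cyclin gene, had 5668 in dKO and 2893 in control (adjusted p 1.03e-10), and Tyms, which makes thymidylate synthase, 4296 in dKO and 2433 in control (adjusted p 1.49e-07), by the authors' deposited table. The part of cycling cells in the values of the 10 genes was not tested. In the single pair, the median log2 ratio was 0.52 for the 15 cycling markers and 0.45 for the 9 genes of the G1/S step, beside 0.01 for all 8681 genes.

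**Figure D4:**
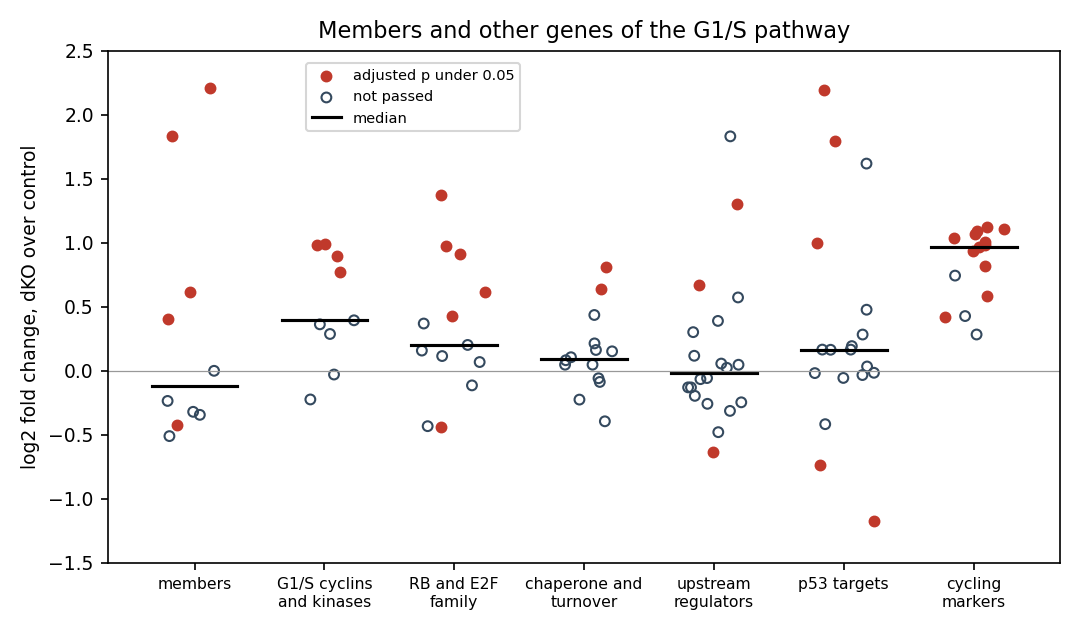
Log2 fold change (dKO over control) of the 10 genes and of 6 other lists, 1 point per gene, filled where the authors' deposited table has an adjusted p under 0.05. Bars are medians. The lists are G1/S cyclins and kinases, the retinoblastoma and E2F families, chaperone and turnover genes, upstream regulators, p53 targets and cycling markers. Not all of them belong to the G1/S step. The cycling markers have the highest median (0.97), while the 10 genes have a median of -0.12 with Cdkn2a and Cdkn1a far above it.

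Among 7 T cell and regulatory T cell markers, Ctla4, an inhibitory receptor gene, was the one that rose, with 26706 scaled counts in dKO and 13258 in control (adjusted p 4.71e-05) in the authors' deposited table. The other 6 did not pass. At a raw p under 0.05 of the DESeq test, 2 of the 7 were higher in dKO and 2 lower. The higher ones were Ctla4 and Cd4 (log2 0.31). The lower ones were Foxp3 (log2 -0.30, adjusted p 0.188) and Ikzf2 (log2 -0.31, adjusted p 0.134). More genes pass this raw p than the adjusted one, and their share among all genes was not taken. For scale, by raw p of the DESeq test, Cdkn1b (0.0117) ranked 2767 and Ccnd2 (0.0649) ranked 4646 among 31641 genes. Markers of other cell types that a sort could hold were summed for each type. Summed over 8 B cell markers, the authors' deposited table had 1091 scaled counts in dKO and 1010 in control, nearly all of it Cd79b. Of 6 plasma cell markers measured, 2 rose in the authors' deposited table, Mzb1 (905 scaled counts in dKO and 11.2 in control) and Prdm1 (2053 in dKO and 1179 in control), and the sum was 9507 in dKO and 5035 in control. At a raw p under 0.05 of the DESeq test, with no share of all genes to set beside it, 4 of the 6 were higher in dKO and 0 lower. They included Xbp1, which made up most of the sum, with 6388 scaled counts in dKO and 3750 in control. Igj, with 133 in dKO and 70.3 in control, was also among them. Sdc1 stood at 28.0 scaled counts in dKO and 23.4 in control in the authors' deposited table, and Tnfrsf17 was listed at 0 in dKO and at 1.24 in control. The 10 macrophage and dendritic cell markers summed to 243 scaled counts in dKO and 248 in control in the authors' deposited table. There the 6 CD8 T and NK cell markers summed to 1011 in dKO and 937 in control. Most of it was Cd8b1 (687 in dKO and 663 in control), while Cd8a had 26.7 in dKO and 16.9 in control. The 7 stromal markers summed to 4542 in dKO and 4794 in control, most of it Pecam1, in the authors' deposited table. Neither the B cell list nor these 3 lists had a gene past the adjusted p of the DESeq test of the authors' deposited table. At a raw p under 0.05 there was 1 such gene, a macrophage or dendritic cell marker that was lower in dKO. The part of plasma cell genes in the rise of Cdkn1a, Cdkn2a, Cdkn2c or Cdkn2d was not tested.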

How the data were processed

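The authors' deposited signal columns of the replicated comparison hold the mean count over the libraries of a group; the file headers call them raw counts, but the values are fractional and step as reads do after division by a size factor. The deposited log2 fold changes, a signed fold score that equals the ratio of these means, and the deposited p-values, raw and adjusted, come with them. Per the submitters' processing notes, RSEM and DESeq were used, without versions, on mm10 (GRCm38). The deposited FPKM values of the single pair were made on mm9 with TopHat 1.4.0 and Cuffdiff 0.0.6, per the submitters' processing notes; the p-values and q-values deposited with them test 1 library against another and were not used.

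Per-library counts were not to be had, so the authors' test was used as deposited and no test was added. Recomputing the log2 ratio and the adjusted p gave the deposited values within 0.000211 and 0.00124. Reads per control library were recovered where exactly 1 pair of whole numbers gave the deposited mean within 6e-05. This held for each of the 4216 distinct control means under 300. The method was tested on simulated data with known read numbers, which it returned wherever it found 1 solution. Those data covered control means under 300 and dKO means of 5 to 20, with the dKO size factors taken as known. The dKO means of Ccnd1 and Cdkn2a lie above that range, so their sets of whole reads were not tested in this way. Of 27901 transcript entries, 97.5% were matched to a RefSeq symbol. Copies were searched with blastn 2.17.0 in GENCODE transcripts of GRCm38, with at least 90% identity over 200 bases. Promoter windows are those of RefSeq on GRCm38.p6, cut to 250 bases before the start. Analyses used Python 3.11.15, numpy 2.4.6 and pandas 2.3.3. Levels per kilobase divide a scaled count by the table's exon length and were added after the values were seen; only FPKM had been planned for comparing genes. The genes and lists were chosen with earlier results of these data known. Named were all 10 genes, Id2 and Id3, and up to 4 genes per list with the smallest adjusted p among those past 0.05 (with none, the 2 with the highest mean); overlapping neighbours, Rbl2, E2f6, Tnfrsf10b, Foxp3, Il2ra, Kdm5d, Uty and the cell type markers given by value were named after their values were seen. A planned comparison of protein sequences was not made.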

Additional observations from a re-analysis of the deposited data

How the results depend on the processing

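The counts of 4 genes that rose and 1 that fell stood when p-values were adjusted only over genes whose mean reached 10, and at an adjusted p under 0.1. When genes that overlap another were left out, the count that fell was 0, because Ccnd3 is itself among the overlapping genes, and the count that rose was 4. At an adjusted p under 0.01 the counts were 3 that rose and 0 that fell. Leaving out overlapping genes also gave 2 that rose in place of 4 among the G1/S cyclins and kinases, 0 that fell in place of 1 in the retinoblastoma and E2F list and 1 that rose in place of 2 among regulators, since Ccna2, Ccne2, Rbl2 and Ezh2 overlap a gene. It also gave 4 that rose in place of 5 in the retinoblastoma and E2F list and 10 in place of 12 among cycling markers. Adjusted over genes whose mean reached 10, 5 G1/S genes and 13 cycling markers rose, and 4 p53 targets rose and 3 fell. The share of all genes that passed was taken only at the deposited adjusted p under 0.05. Counts of the replicated comparison at the other settings therefore have no such share beside them. In the single pair, the count with a log2 ratio of 1 or more in size was 0 in place of 1 when the most abundant transcript replaced the sum.

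Against 1 control library at a time, the log2 ratio of the deposited dKO mean ranged from 1.70 to 1.98 for Cdkn1a, from 1.97 to 2.49 for Cdkn2a and from -0.58 to -0.43 for Ccnd1. For the other 7 genes, and for every dKO library, leaving out a library could not be run, because the reads could not be recovered. Scaling by column sums shifted all log2 values by -0.04, and setting the median of genes to 0 by 0.01; Cdk4, at -0.0004, took the values -0.04 and 0.005. No paired analysis was possible because the columns hold group means, with no values for the numbered libraries.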

Other observations

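Per kilobase of exon length, Cdkn2d had the 2nd highest level of the 10 genes in dKO, at 2795 scaled counts beside 2249 for Cdk4, and the 3rd highest in control, at 2108 beside 2250 for Cdk4. In the single pair it was 8th in the library labelled dKO, at 6.90 FPKM beside 208 for Cdk4, and 7th in the library labelled control, at 4.97 FPKM beside 196 for Cdk4. The pair lists 2 entries for its transcript, the other one at 0 in both libraries, and the tables were made with different builds and annotations. The cause of the gap was not tested.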
